A study of Mus musculus with 6 samples.

Results

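In the mouse stomach corpus, where the acid and digestive enzyme glands lie, 10 genes met a rule for lower levels in every PGC;Ras;APC FF library. Lying below every Ras;APC FF library in every PGC;Ras;APC FF library was not enough for the rule, and 5.47% of 11857 tested genes did so. Among the 10 were genes of muscle, detoxification, digestion, iron reduction and lipid synthesis. The genes were chosen from these same values, so their levels are a description. The rule took rows of the FPKM table (fragments per kilobase of gene, scaled to the library's total) with a control mean of at least 3. It asked that the highest PGC;Ras;APC FF value be at most 0.6 times the lowest control value, and left out 17 named genes, mostly of smooth muscle and fat, and names of uncharacterised gene models. Of 18988 rows, 8758 reached the control mean, and 11 genes met the whole rule. In 10 of them, Amy2a5, Cybrd1, Thrsp, Cyp2b10, Pln, Bves, Ckm, Optc, Myom1 and Ugt1a7c, every control library had a reading. The last, Eif2s3y, a Y-linked translation factor gene, met the rule only as 0 against 0: it was at 13.2 FPKM in control replicate 3 and at 0 in the other 5 libraries, and is left out of what follows.

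The libraries came from 6 mice on a C57BL/6 background, 1 mouse per library. The 3 controls carried Ras;APC FF (replicates 1 to 3) and the other 3 carried PGC;Ras;APC FF (replicates 4 to 6), so both groups share Ras;APC FF. The study's title speaks of gastric cancer brought about in the corpus by oncogenes activated in succession. What PGC and FF stand for is not written in the labels, which give no driver promoter, age, sex or time after an induction either. The PGC;Ras;APC FF libraries are called PGC libraries, and the Ras;APC FF libraries controls.

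The muscle coat of the stomach contracts when calcium enters the cytosol and relaxes when the SERCA pump returns it to internal stores. Pln (phospholamban) is the small membrane protein that holds this pump back. Ckm, the muscle creatine kinase, regenerates ATP from phosphocreatine, Myom1 (myomesin) links thick filaments at the M-band of striated muscle, and Bves is a Popeye domain protein that binds cyclic AMP at muscle membranes. Optc (opticin) is an extracellular small leucine-rich repeat protein. Amy2a5 is a pancreatic alpha-amylase gene, Cybrd1 encodes a ferric reductase of the duodenal brush border, and Thrsp encodes Spot 14, a nuclear protein of lipogenic tissues. Cyp2b10 and Ugt1a7c belong to the cytochrome P450 and UDP-glucuronosyltransferase families, which oxidise foreign compounds and attach glucuronic acid to them.

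The promoters of 9 of the 10 genes were matched by symbol in RefSeq (GRCm38.p6), as windows of 300 bases from 250 before to 50 after the annotated start. Bves was not matched. 7 motifs were searched on both strands. A CArG box, the element bound by serum response factor, was found in 1 of the 9, Myom1, and in 1.63% of all 32851 promoters. The glucocorticoid response element core TGTTCT was found in 4 of the 9 (Ugt1a7c, Optc, Amy2a5 and Pln) and in 19.0% of all promoters. The MCAT element CATTCC was found in Cyp2b10 only, against 14.7% of all. The letters CACGTG, TGACGTCA, TTATGTAA and CTTTGAT were in none of the 9 windows, and in 7.15%, 1.79%, 0.938% and 3.73% of all promoters. CpG dinucleotides numbered 1 (Pln) to 23 (Cybrd1) per window, with a median of 4 against 7 over all promoters. The 250 bases before the start are given for 3 muscle genes, to set the window with a CArG box beside 2 without, and for the amylase and the cytochrome gene, with any of these motifs in capitals. The windows are Myom1 at chr17:71019307-71019556, Pln at chr10:53337436-53337685, Ckm at chr7:19410844-19411093 and Cyp2b10 at chr7:25897408-25897657 on the plus strand, and Amy2a5 at chr3:113258700-113258949 on the minus strand.
Myom1: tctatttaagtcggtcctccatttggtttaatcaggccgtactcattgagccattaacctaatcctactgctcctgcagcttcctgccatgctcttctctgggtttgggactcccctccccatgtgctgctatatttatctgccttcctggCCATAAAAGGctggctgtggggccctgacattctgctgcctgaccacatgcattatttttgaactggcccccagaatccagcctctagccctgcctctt
Pln: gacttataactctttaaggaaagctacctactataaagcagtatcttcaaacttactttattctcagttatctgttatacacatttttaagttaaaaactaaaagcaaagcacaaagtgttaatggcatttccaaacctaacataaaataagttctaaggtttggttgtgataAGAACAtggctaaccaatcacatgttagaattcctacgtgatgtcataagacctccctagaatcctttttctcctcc
Ckm: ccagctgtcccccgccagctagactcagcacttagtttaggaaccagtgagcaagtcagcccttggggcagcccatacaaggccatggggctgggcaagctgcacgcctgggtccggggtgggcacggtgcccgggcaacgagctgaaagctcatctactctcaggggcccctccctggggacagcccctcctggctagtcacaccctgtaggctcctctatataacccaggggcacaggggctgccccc
Amy2a5: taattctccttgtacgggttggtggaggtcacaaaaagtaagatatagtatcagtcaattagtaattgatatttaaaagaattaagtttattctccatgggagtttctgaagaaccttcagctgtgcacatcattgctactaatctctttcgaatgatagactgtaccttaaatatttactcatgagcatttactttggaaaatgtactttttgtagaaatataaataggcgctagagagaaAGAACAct
Cyp2b10: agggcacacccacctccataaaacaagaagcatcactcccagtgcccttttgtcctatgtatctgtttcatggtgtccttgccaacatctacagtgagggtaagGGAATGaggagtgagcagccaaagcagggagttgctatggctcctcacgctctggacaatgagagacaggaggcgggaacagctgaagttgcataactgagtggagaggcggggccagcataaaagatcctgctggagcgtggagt
The CArG box of Myom1 began 99 bases before the RefSeq start used here. The TGTTCT cores of Pln and Amy2a5 (on the minus strand, so read as AGAACA) began 77 and 8 bases before theirs. The MCAT element of Cyp2b10, also on the minus strand, began 146 bases before its start. The Ckm window held none of the 7. The Myom1 and Ckm windows lie inside the gene spans given below, which begin at 71002633 and 19404776. They are thus windows of later starts, and the bases before the first start of either gene were not searched.

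Some library traits bear on all of these values. Summed FPKM ran from 664821 (replicate 6) to 804774 (replicate 3). Absolute sequencing depth is unknown. The secreted enzyme genes Pgc, Clps and Pla2g1b, picked with their values in view, made up 34.9% to 48.1% of summed FPKM in controls, 31.7% and 32.7% in replicates 5 and 4, and 6.36% in replicate 6. Over all 11857 tested genes the median log2 difference was 0.26 with FPKM as deposited and -0.0034 after median-of-ratios scaling. The Y-linked gene Ddx3y was at 6.09 FPKM in replicate 3, at 0.01 in replicate 6 and at 0 in the rest, and Xist was at 0 in replicate 3 against 3.58 to 6.19 FPKM in the others. Replicate 3 thus had a pattern of male tissue, and the other 5 had the female one.

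**Figure D1:**
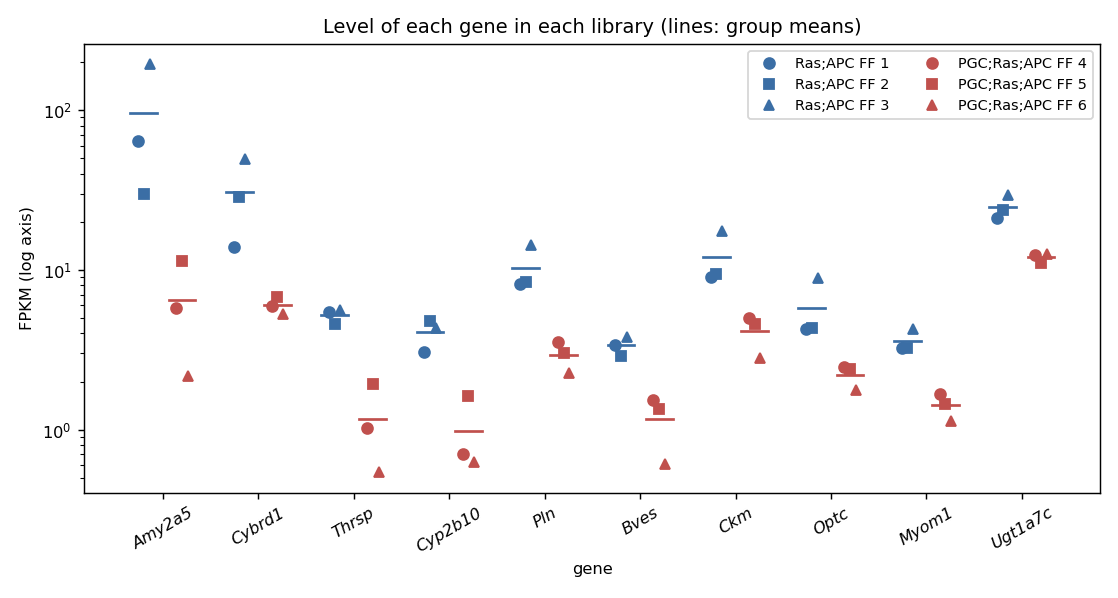
FPKM on a log axis for each gene, with a symbol for each library and a line at each group mean. The red PGC;Ras;APC FF symbols lie below the blue Ras;APC FF symbols for all 10 genes, as the rule required, and control replicate 3 (blue triangle) is the highest library for 9 of them.

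Pln had the lowest level relative to controls of the muscle genes. It lies on chromosome 10 (53337667 to 53345987, plus strand) and was at 8.18, 8.37 and 14.3 FPKM in controls against 3.55, 3.00 and 2.26 FPKM in replicates 4, 5 and 6. The group means were 10.3 ± 3.50 and 2.94 ± 0.647 FPKM (SD, n = 3 each), so PGC libraries stood at 28.5% of control. Control replicate 3 was well above its group, and replicate 6 was the lowest of all. In bulk tissue, fewer cells of a type and less RNA per cell cannot be told apart, here and for every gene that follows. The SERCA pump genes, named after their values were seen except Atp2a2, were not lower. Atp2a2 was at 45.5 to 53.3 FPKM in controls against 56.4 to 72.1 in PGC libraries, and Atp2a3 at 39.4 to 59.1 and 67.1 to 110.4. Neither passed the test across all genes (limma adjusted p = 0.17 and 0.0907). Sarcolipin (Sln), a pump inhibitor related to Pln, was at 0.45 to 0.65 FPKM in controls against 0.05 to 0.28 in PGC libraries, too low to be tested.

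Among calcium store and channel genes, a list of 18 that includes Pln, 9 were tested and 0 passed in either direction (limma adjusted p under 0.05), with 4 lower and 1 higher at an unadjusted p under 0.05. Over all tested genes, the comparison called 0.0422% lower and 0.11% higher at the adjusted threshold, and at the unadjusted one 3.63% lower and 35.4% in either direction. The median log2 difference of the list was -0.081, against 0.26 over all tested genes. The most abundant members besides Atp2a2 were Slmap, a muscle membrane-associated protein, at 23.4 ± 3.83 and 21.9 ± 1.17 FPKM, and Asph, an aspartyl hydroxylase gene that also encodes junctional proteins, at 21.2 ± 2.14 and 34.01 ± 8.81 (SD, n = 3 each). Chosen after their values were seen, the calcium pump gene Atp2b4 was at 7.54 to 10.1 FPKM in controls against 3.11 to 4.77 in PGC libraries, and Casq2, calsequestrin of the calcium store, at 4.00 to 5.00 against 1.20 to 2.67. Neither group pair overlapped, and neither gene passed (limma adjusted p = 0.085 for each).

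Ckm (chromosome 7, 19404776 to 19422841, plus strand) was at 9.07, 9.39 and 17.4 FPKM in controls against 5.02, 4.58 and 2.81 in replicates 4 to 6. Its means were 11.95 ± 4.72 and 4.14 ± 1.17 FPKM (SD, n = 3 each), 34.6% of control. Again replicate 3 set the top and replicate 6 the bottom. The brain-type kinase Ckb was far more abundant, at 379.0, 369.8 and 461.8 FPKM in controls against 296.6, 337.1 and 128.9 in replicates 4 to 6. Mitochondrial Ckmt1, named after its values were seen, was at 281.0 to 364.2 and 330.6 to 394.4 FPKM, with overlapping groups. The Ckb groups did not overlap. Neither gene passed across all genes (limma adjusted p = 0.153 for Ckb and 0.464 for Ckmt1).

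Muscle energy genes, a list of 17 with 16 in the table and Ckm among them, had 10 tested members, of which 9 had a negative log2 difference and 0 passed in either direction by limma, with 5 lower and 0 higher at an unadjusted p under 0.05 (all genes: 3.63% lower, 35.4% in either direction). The list median was -0.69. Cox7a1, the muscle and heart isoform of a cytochrome oxidase subunit, was at 79.4, 89.6 and 196.6 FPKM in controls against 66.2, 96.2 and 24.6 in replicates 4 to 6, and the chaperone Cryab at 38.9 ± 14.4 and 23.4 ± 5.10 (SD, n = 3 each). Both had overlapping groups, with replicate 3 highest.

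Myom1 (chromosome 17, 71002633 to 71126856, plus strand) was among the steadiest of the genes within each group, at 3.24, 3.22 and 4.25 FPKM in controls against 1.67, 1.44 and 1.14 in replicates 4 to 6. Its means were 3.57 ± 0.589 and 1.42 ± 0.266 FPKM (SD, n = 3 each), 39.7% of control. It was the only myomesin gene read here above trace: Myom2 reached at most 0.01 FPKM and Myom3 was at 0.09 to 0.25, both named after their values were seen. Of 12 skeletal muscle genes in the table, 8 stayed under 1 FPKM in every library, and the summed list was at 6.01 to 8.44 FPKM in controls against 8.26 to 9.45 in PGC libraries. Chosen after their values were seen, titin (Ttn) was at 0 in 5 libraries and 0.01 in replicate 6, and the fast troponin genes lay on opposite sides of control. Tnni2 was at 1.79 to 2.81 FPKM in controls against 4.93 to 6.08 in PGC libraries, and Tnnt3 at 0.49 to 2.38 against 0.03 to 0.25. The part of striated muscle in the Myom1 values was not tested.

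Bves (chromosome 10, 45335772 to 45372479, plus strand) was at 3.41, 2.87 and 3.81 FPKM in controls against 1.54, 1.34 and 0.61 in replicates 4 to 6. The means of 3.36 ± 0.472 and 1.16 ± 0.490 FPKM (SD, n = 3 each) put it at 34.6% of control. Its relative Popdc2, named after its values were seen, was at 3.32, 3.18 and 7.07 FPKM in controls against 2.43, 1.81 and 1.45 in replicates 4 to 6. The groups did not overlap there either, and Popdc2 missed the rule on the ratio, with a limma adjusted p of 0.0925. Popdc3 was at no more than 0.31 FPKM in any library.

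Optc (chromosome 1, 133897199 to 133907999, minus strand) was at 4.25, 4.34 and 8.84 FPKM in controls against 2.45, 2.39 and 1.78 in replicates 4 to 6. The means were 5.81 ± 2.62 and 2.21 ± 0.371 FPKM (SD, n = 3 each), 38.0% of control. Its neighbour Prelp lies 2304 bases away on the same strand and encodes a related leucine-rich protein. Prelp, named with the rest of the family after values were seen, was at 21.7 to 22.8 FPKM in controls against 14.2 to 21.8 in PGC libraries, with overlapping groups. Of the other family members, Fmod and Aspn shared the high control replicate 3: Fmod was at 1.56, 1.39 and 5.43 FPKM in controls, and Aspn at 4.36, 6.13 and 11.98. Dcn and Bgn, abundant fibroblast proteoglycans, were at 98.2 and 87.1 FPKM on average in controls and highest in replicate 6, at 161.7 and 178.0. None of these 5 passed across all genes (limma adjusted p from 0.165 for Aspn to 0.427 for Dcn).

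The smooth muscle contraction list, 20 genes led by Actg2 and Acta2, was lower in the same libraries. All 19 tested members had a negative log2 difference (median -1.09), 17 had every PGC library below every control (5.47% of all tested genes), and 1, Hspb6, fell by limma over all genes (0.0422% of all). Summed FPKM of the list were 3260 to 5681 in controls against 1704 to 2271 in PGC libraries, and none of the 20 was at 0 in any library. Much of this list was on the list of names that the rule left out, and its direction was known when the genes were chosen.

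Each gene was then set against the geometric mean FPKM of that list in the same library, which was 52.5 to 79.4 in controls against 23.6 to 34.3 in PGC libraries. Because the list itself was lower in PGC libraries, this division raised the ratio of group means for all 10 genes. Myom1 was at 5.79% ± 0.400 of the muscle level in controls against 4.89% ± 0.0767 in PGC libraries, Ckm at 18.8% ± 2.80 and 14.1% ± 2.01, and Bves at 5.49% ± 0.708 and 3.90% ± 1.14 (SD, n = 3 each). Optc was at 9.04% ± 1.82 and 7.65% ± 0.567, with overlapping groups. Pln was at 14.9%, 15.9% and 18.0% of the muscle level in controls against 10.3%, 10.4% and 9.58% in replicates 4 to 6, a ratio of group means of 0.62. Amy2a5, Cybrd1 and Thrsp did not overlap either, at ratios of 0.157, 0.444 and 0.467, while Cyp2b10 did, at 0.512. No test is given, since the rule used the same values, and the part of muscle content in these differences was not tested.

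**Figure D2:**
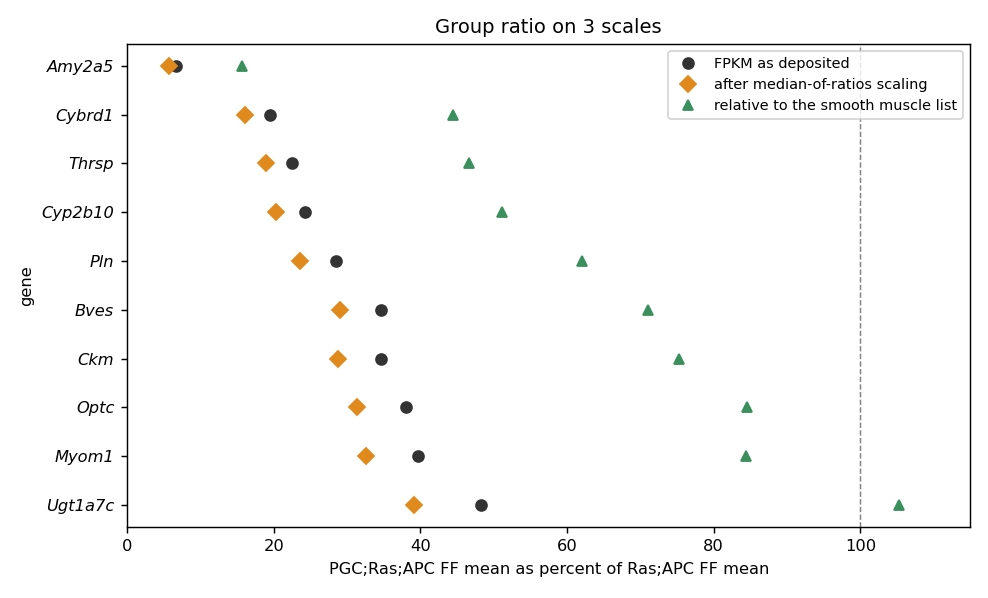
PGC;Ras;APC FF mean as a percentage of the Ras;APC FF mean for each gene, from FPKM as deposited (black circles), after median-of-ratios scaling (orange diamonds) and relative to the geometric mean of the smooth muscle list (green triangles). Scaling moves every gene lower, from 48.3% to 39.1% for Ugt1a7c, while the relative scale moves every gene higher, from 39.7% to 84.4% for Myom1 and from 6.74% to 15.7% for Amy2a5.

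Amy2a5 had the largest difference of the set. It lies on chromosome 3 (113247178 to 113258837, minus strand) and was at 63.9, 29.7 and 193.5 FPKM in controls against 5.80, 11.4 and 2.18 in replicates 4 to 6. Means were 95.7 ± 86.4 and 6.45 ± 4.62 FPKM (SD, n = 3 each), 6.74% of control. The controls themselves spanned 6.52-fold and the PGC libraries 5.21-fold, the widest ranges in the set. Its near-identical neighbours Amy2a2, Amy2a3 and Amy2a4 were listed with the same values as each other, at most 0.09 FPKM, so how reads were divided among the copies is uncertain. Amy1, the salivary-type amylase, was at 4.94, 4.51 and 5.08 FPKM in controls against 4.07, 3.56 and 0.95 in replicates 4 to 6 (limma adjusted p = 0.163). Amy2b, another amylase gene, was at 0.36 to 0.67 FPKM in controls against 0, 0.21 and 0 in replicates 4 to 6. These relatives were named after their values were seen.

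The other enzymes of pancreatic juice were mostly not lower in all 3 PGC libraries. Of 15 exocrine pancreas genes, Amy2a5 included, 7 were tested, of which 6 had a negative log2 difference and 0 passed in either direction by limma. At an unadjusted p under 0.05, 1 was lower and 1 higher (all genes: 3.63% lower, 35.4% in either direction), and the list median was -0.41. Try4, a trypsinogen gene with near-identical copies, was at 161.8, 208.0 and 118.5 FPKM in controls against 216.5, 189.9 and 40.9 in replicates 4 to 6. Cel, the bile salt-activated lipase, was at 14.6 ± 1.94 and 9.82 ± 6.33 FPKM, lowest in replicate 6 (2.64) and otherwise overlapping, and the elastase gene Cela1 was at 22.1 ± 5.95 and 47.1 ± 28.8 (SD, n = 3 each). Amy2a5 was highest in control replicate 3, where Try4 was lowest of the controls. Chosen after their values were seen, Cpa1 and Prss2 were the lowest of the list, at 0 to 0.04 FPKM in every library. Sycn, also of the list and chosen likewise, was at 10.5 to 13.5 FPKM in controls against 2.50 to 13.4 in PGC libraries. Cela2a, chosen likewise, was at 0.86 to 1.18 against 0.15 to 0.69 FPKM, without overlap and too low to be tested. Of the 15 genes, 5 stayed under 1 FPKM throughout. Summed, the list was at 282.3 to 375.2 FPKM in controls against 133.2 to 290.3 in PGC libraries.

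Cybrd1 (chromosome 2, 71117923 to 71142926, plus strand) was at 13.9, 28.7 and 49.3 FPKM in controls against 5.90, 6.81 and 5.27 in replicates 4 to 6. Means were 30.6 ± 17.8 and 5.99 ± 0.774 FPKM (SD, n = 3 each), 19.6% of control. Controls spread over 3.54-fold, while the 3 PGC libraries, replicate 6 included, lay within 1.29-fold of each other. The other genes of iron handling listed here were named after the values were seen. Slc11a2, the ferrous iron importer that takes up what the reductase makes, was at 4.40 to 5.28 FPKM in controls against 5.98 to 11.9 in PGC libraries. The transferrin receptor gene Tfrc was at 8.56 to 10.7 and 11.9 to 19.5 FPKM, and the exporter gene Slc40a1 at 1.84 to 2.13 and 1.89 to 4.37. Transferrin (Trf) was at 13.7 to 14.3 FPKM in controls against 34.9, 17.1 and 170.6 in replicates 4 to 6. The ferritin genes Fth1 and Ftl1 overlapped between groups. None of the 9 other tested genes passed (limma adjusted p from 0.103 for Tfrc to 0.959 for Epas1), and 8 of them had a positive log2 difference while that of Epas1 was -0.011. These signs are from FPKM as deposited, where the median log2 difference over all tested genes was itself 0.26.

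Thrsp (chromosome 7, 97412938 to 97417730, minus strand) was at 5.43, 4.56 and 5.61 FPKM in controls against 1.02, 1.94 and 0.54 in replicates 4 to 6. Means were 5.20 ± 0.562 and 1.17 ± 0.711 FPKM (SD, n = 3 each), 22.4% of control. Its controls were the tightest of the set, within 1.23-fold. The enzymes of fatty acid synthesis, named after their values were seen, had other levels. Acly, Acaca and Fasn, which supply and build the acyl chain, were at 30.1 ± 3.80, 3.37 ± 0.345 and 20.3 ± 2.64 FPKM in controls against 33.4 ± 3.26, 3.41 ± 0.539 and 24.4 ± 5.77 in PGC libraries. The regulator Srebf1 was at 17.2 to 17.7 and 21.9 to 43.9 FPKM. Among 8 such genes besides Thrsp only Scd1, a stearoyl-CoA desaturase, had a negative log2 difference, with 9.30, 7.26 and 17.2 FPKM in controls against 4.92, 3.09 and 9.75 in replicates 4 to 6. These signs are from FPKM as deposited, where the median log2 difference over all tested genes was 0.26. By limma 0 of the 8 passed, and 3 had an unadjusted p under 0.05, all higher (all genes: 3.63% lower, 35.4% in either direction).

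Thrsp is also made by fat cells, whose genes lay on both sides of control. Of 12 tested adipocyte genes 2 fell by limma (Cfd and Adipoq, both left out of the set by name) and 0 rose, against 0.0422% and 0.11% of all genes. At an unadjusted p under 0.05, 5 were lower and 3 higher (all genes: 3.63% lower, 35.4% in either direction), and the list median was -0.49. Summed FPKM of the 17 genes in the table were 307.5 to 342.1 in controls against 218.8 to 285.0 in PGC libraries. Further members were chosen after their values were seen. The fat cell genes Plin1 and Lep were at 0.58 to 1.14 and 0.04 to 0.09 FPKM in controls and at most 0.02 in PGC libraries. The more abundant Pparg, the adipogenic nuclear receptor, was at 23.7 to 34.2 FPKM in controls against 39.8 to 45.7 in PGC libraries. Gpd1, a glycerol phosphate dehydrogenase, was at 19.9 to 23.3 against 24.9 to 40.7 FPKM, and Cidea, a lipid droplet protein, at 0.86 to 1.36 against 1.92 to 7.78, so these 3 were higher without overlap and did not pass (limma adjusted p = 0.0901, 0.135 and 0.115). Those rises are from FPKM as deposited, where the median log2 difference over all tested genes was 0.26. After median-of-ratios scaling the list median was -0.72. Of the 12 tested genes, 4 had every PGC library below every control (5.47% of all tested genes). Besides Cfd and Adipoq these were Car3, at 11.04 to 12.3 against 1.70 to 6.70 FPKM, and Plin4, at 3.03 to 4.63 against 0.90 to 2.59. Car3 and Plin4 did not pass (limma adjusted p = 0.085 and 0.0941). The part of fat content in the Thrsp values was not tested.

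Cyp2b10 (chromosome 7, 25897620 to 25926624, plus strand) was at 3.07, 4.81 and 4.34 FPKM in controls against 0.70, 1.63 and 0.63 in replicates 4 to 6. Means were 4.07 ± 0.900 and 0.987 ± 0.558 FPKM (SD, n = 3 each), 24.2% of control. It was the only gene of the 10 whose highest control was not replicate 3. It is known as a target of the nuclear receptors CAR (Nr1i3) and PXR (Nr1i2), named with the other relatives after their values were seen. Nr1i3 was at 0 to 0.02 FPKM in every library, and Nr1i2 at 4.54 to 6.37 in controls against 6.44 to 9.83 in PGC libraries (limma adjusted p = 0.107). Por, the electron donor of microsomal P450 enzymes, was at 52.6 to 61.5 and 71.5 to 116.2 FPKM (0.0954). The related Cyp2b9 and Cyp2b13 were at no more than 0.04 FPKM.

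Ugt1a7c (chromosome 1, 88095062 to 88220002, plus strand) was at 21.1, 23.9 and 29.6 FPKM in controls against 12.5, 11.01 and 12.5 in replicates 4 to 6. Means were 24.8 ± 4.31 and 12.0 ± 0.855 FPKM (SD, n = 3 each), 48.3% of control, the smallest difference of the set and the only one in which replicate 6 was the highest of its group. Its locus is shared: 8 other Ugt1a genes overlap it, and 54.6% of its exonic bases also belong to another of them, so reads in the common exons cannot be given to a single gene. Ugt1a6a was at 13.7, 19.6 and 18.6 FPKM in controls against 21.0, 20.0 and 33.7 in replicates 4 to 6, and Ugt1a6b at 4.54 to 8.89 and 7.35 to 10.4. Neither passed (limma adjusted p = 0.166 and 0.384), and both were named after their values were seen. In relation to the muscle list, Ugt1a7c was at 40.4% ± 4.43 in controls against 42.5% ± 9.16 in PGC libraries (SD, n = 3 each), with overlapping groups.

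Xenobiotic and steroid metabolism genes, 21 with Cyp2b10 among them, lay on both sides of control. Of 18 tested, 9 had a negative log2 difference and 0 passed in either direction by limma, with 6 lower and 3 higher at an unadjusted p under 0.05 (all genes: 3.63% lower, 35.4% in either direction). The list median was 0.014 with FPKM as deposited, against 0.26 over all tested genes. After median-of-ratios scaling it was -0.29, against -0.0034 over all. Gsta4, a glutathione transferase, was at 775.0 to 1280 FPKM in controls against 1413 to 2129 in PGC libraries. Cyp2s1, an extrahepatic P450, was at 259.0 to 391.8 and 120.1 to 247.3 FPKM, without overlap, and Gstm1 at 220.6 to 238.1 and 210.4 to 296.2, with overlap.

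**Figure D3:**
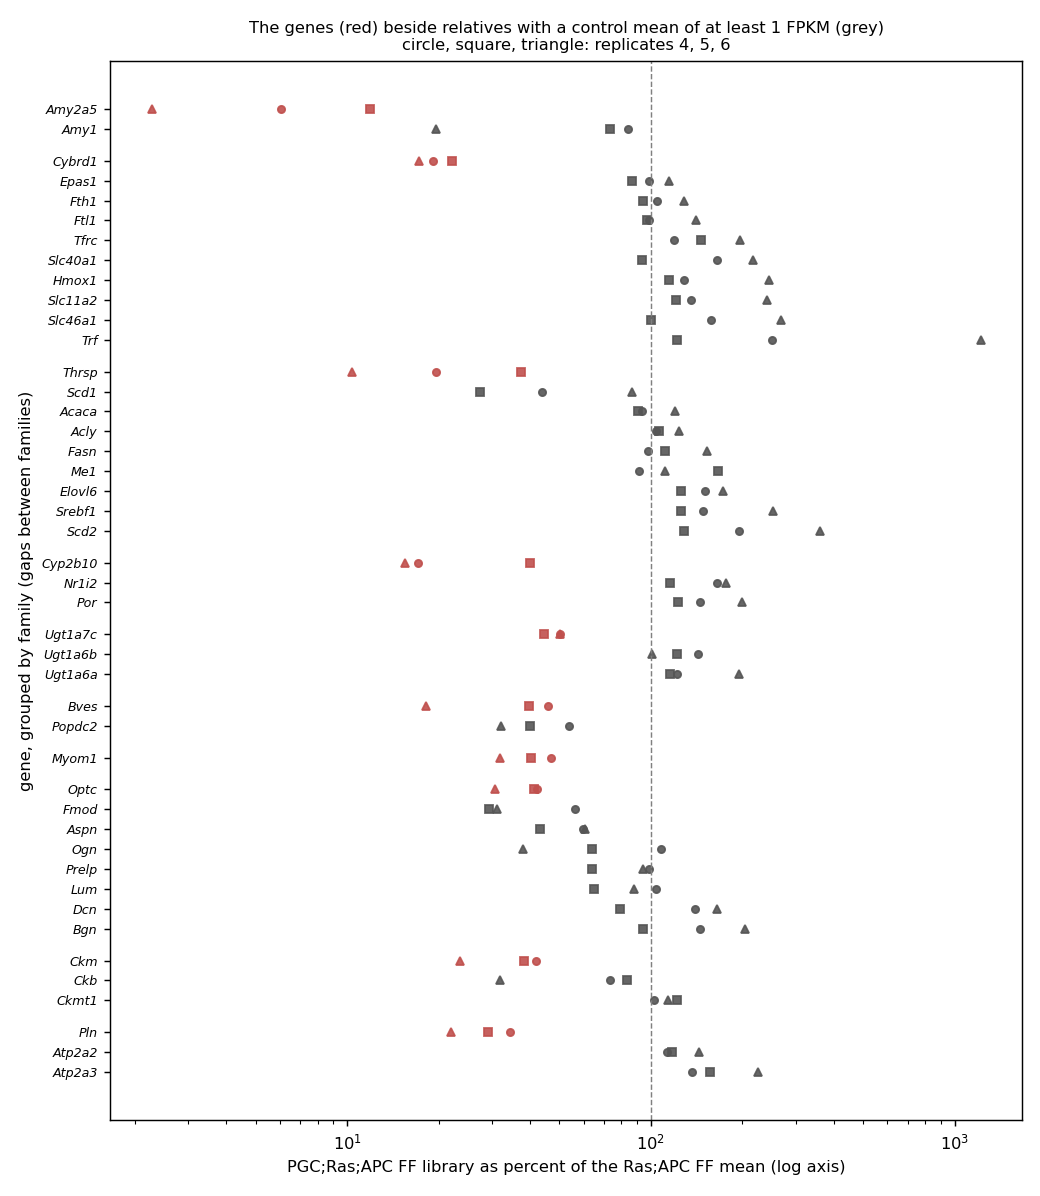
Each PGC;Ras;APC FF library as a percentage of the Ras;APC FF mean (log axis, dashed line at 100), for the 10 genes (red) and for relatives with a control mean of at least 1 FPKM (grey), grouped by family. Amylase, iron, fatty acid synthesis, P450 and UGT1A genes lie to the left of most of their relatives, while Bves lies beside Popdc2 and Optc beside Fmod, both with all 3 libraries under 60%.

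The order of libraries within each group is described without a test. The rule bears on it, since a gene high in replicate 6, as most genes were, is less likely to meet the limit on the highest PGC value. Control replicate 3 was the highest control for 9 of the 10 genes, against 43.2% of all 11857 tested genes and 19 of 20 genes of the smooth muscle list. Replicate 6 was the lowest PGC library for 9 of the 10, against 16.0% of all tested genes, of which it was the highest for 74.0%, and 16 of 20 of the muscle list. Over the 10 genes, the median level relative to the control mean was 77.7%, 86.5% and 129.1% in replicates 1 to 3 and 38.2%, 39.1% and 20.0% in replicates 4 to 6. Control replicate 3 was also the male library, and the part of sex in its levels was not tested. The muscle genes Pln, Bves, Ckm and Myom1, with Optc, were ordered 4, 5, 6 from high to low in PGC libraries, while Amy2a5, Cybrd1, Thrsp and Cyp2b10 were highest in replicate 5.

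**Figure D4:**
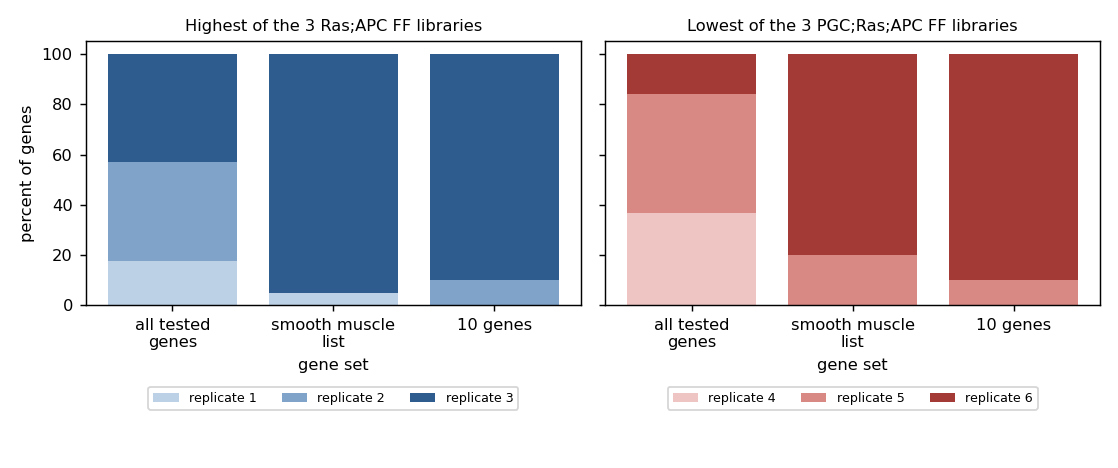
Share of genes (percent) for which each library was the highest of the 3 Ras;APC FF libraries (left) or the lowest of the 3 PGC;Ras;APC FF libraries (right), for all tested genes, the 20 smooth muscle genes and the 10 genes. Replicate 3 takes 9 of the 10 genes on the left, and replicate 6 takes 9 on the right, where its share of all tested genes is 16.0%.

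The set lay close to its limit. Of the 8758 rows with a control mean of at least 3 FPKM, 18 with a reading in every control met both value limits, which is 0.206%, and 8 of the 18 were left out by name. The ratio of the highest PGC to the lowest control value was 0.383 for Amy2a5, 0.425 for Thrsp, 0.434 for Pln and 0.489 for Cybrd1, and above 0.5 for the other 6. The working name of the set, genes halved in every PGC library, thus held for 4 of 10 when every library pair is compared. After median-of-ratios scaling it held for all 10, with ratios from 0.346 for Amy2a5 to 0.497 for Optc. Just inside the limit were Ckm (0.553), Optc (0.576) and Ugt1a7c (0.593). Just outside were Car3, a carbonic anhydrase of fat and muscle (0.607), Sgk1, a corticosteroid-induced kinase (0.613), and Pgc, pepsinogen C (0.623). With the groups exchanged, the same limits were met by 192 of 9491 rows, or 184 without the names that the rule leaves out. Unlike the 18, that count keeps rows at 0 in every control. It was made only on FPKM as deposited, where the median log2 difference over all tested genes was 0.26.

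**Figure D5:**
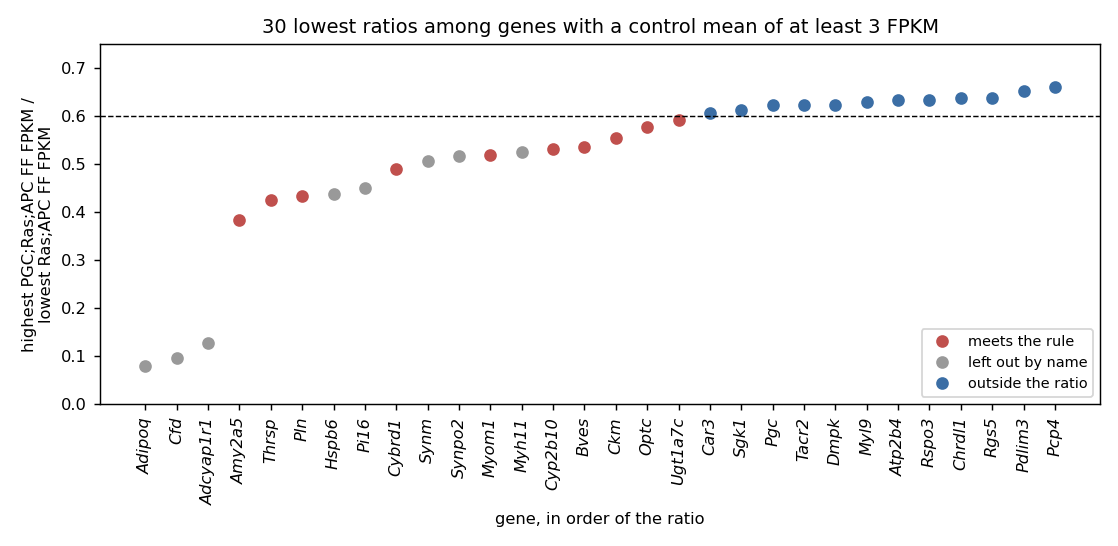
Highest PGC;Ras;APC FF FPKM divided by the lowest Ras;APC FF FPKM for the 30 lowest ratios among genes with a control mean of at least 3 FPKM and a reading in every control. Red points met the rule, grey points met its limits but were left out by name, and blue points lie above the dashed line at 0.6, beginning with Car3 at 0.607.

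In the fit across all genes, 0 of the 10 passed at a limma adjusted p under 0.05, and all 10 had an unadjusted p under 0.05, from 0.000172 for Thrsp to 0.00391 for Optc. Their adjusted p lay between 0.0787 and 0.085. Over all 11857 tested genes 5, or 0.0422%, fell and 13, or 0.11%, rose by limma. An unadjusted p under 0.05 was reached by 35.4% in either direction, 3.63% were lower at an unadjusted p under 0.05, and 5.47% had every PGC library below every control library. Since the rule used this comparison, it favoured low p-values for the 10 genes. Nothing is read from those p-values or from the members' share. The median log2 ratio of group means (FPKM + 1) was -1.34 over the 10 genes, and the median log2 difference in the fit was -1.34 too, against 0.26 over all tested genes. Leaving out replicate 5 gave 458 limma calls over 11654 tested genes, 413 higher and 45 lower. Leaving out replicate 6 gave 938 calls over 11600, 832 higher and 106 lower. Each time 9 of the 10 genes, all but Optc, were among the lower calls. Leaving out replicate 4 gave 5 calls, with 0 of the 10 among them. Leaving out any 1 control gave 0 calls of any gene, with 2270 to 3056 genes at an unadjusted p under 0.05. The rule chose the 10 from this same contrast, so these member counts are not read as support either. An exact test of 3 against 3 libraries cannot give a two-sided p under 0.1.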

How the data were processed

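RNA was measured in 6 stomach corpus libraries. The deposited values are FPKM, computed by the authors. Per the submitters' processing notes, STAR and featureCounts were used on mm10. For the software versions, annotation, strandedness and the FPKM step, the answer is not given in the sources used here. Gene positions were taken by symbol from GENCODE (GRCm38, the same assembly as mm10).

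FPKM are not counts, so log2(FPKM + 1) was modelled in R 4.3.3 by limma 3.58.1 (trended eBayes, genotype as the 1 term, two-sided, Benjamini-Hochberg over all tested genes, threshold 0.05). Genes were tested where 3 or more libraries reached 1 FPKM, and log2 differences of lists come from this fit. The fit was also run on simulated data, with noise independent between genes and between libraries. That run cannot show how the fit behaves with library-wide shifts such as that of replicate 6. Each library is 1 mouse.

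Members and lists were chosen with earlier results of these data known. Described besides all 10 genes were the 3 most abundant genes of each list holding one of them, and the genes next to the ratio limit; any further gene was picked with its values in view. Scaling, pseudocount, filter, limits and single libraries were varied. 0 columns belonged to other samples.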

Additional observations from a re-analysis of the deposited data

How the results depend on the processing

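Of 110 values of single genes under the alternatives, 110 kept their direction, and 15 moved by more than the spread between replicates. With a library left out or another pseudocount, the rule itself fixed that direction, so it is not read as support. The number of genes meeting the rule (11) was 35 with median-of-ratios scaling, 38 with quantile values and 47 with totals that omit the top 50 genes. It was 5 with a ratio of at most 0.5, 34 at 0.7, 25 and 5 with a control mean of at least 1 and 10 FPKM, and 20 with all names kept. Leaving out 1 library gave 15 to 40, which by construction can only loosen the ratio. With replicates 3 and 6 left out together, an alternative chosen after seeing the data, it was 21, the median log2 ratio of the 10 genes was -1.0001 (against -1.34), and limma called 2040 genes. That median was -1.58 to -1.54 under the 3 scalings and -1.64 with a pseudocount of 0.1, and leaving out 1 library gave -1.49 to -1.12. Of all genes 18 were called by limma, with 34 at a pseudocount of 0.1, 9 with no filter on low values, and 0 to 938 when 1 library was left out. Rises made up 72.2% of calls, against 47.4% with median-of-ratios, 50% with quantile values, 54.5% without the 50 most abundant genes, 85.3% at a pseudocount of 0.1 and 33.3% without the filter. Ugt1a7c was called under each of the 3 scalings, and nothing is read from that, since the rule chose it from the same contrast. The cause of these moves was not tested. No paired analysis was possible because the groups share no replicate numbers. Absolute depth is unknown, so values under 1 FPKM carry an unknown counting error.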
